A study of Mus musculus with 8 samples.

Results

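The genes described here encode 10 RNA-binding proteins that direct alternative splicing, namely Rbm20, Rbm24, Rbm38, Rbfox1, Rbfox2, Mbnl1, Mbnl2, Celf1 and Celf2, which act in muscle, and Esrp2, an epithelial regulator. The description as regulators of heart muscle therefore did not hold for Esrp2, and Rbfox1 and Esrp2 were both read at low levels in these samples. They were taken by symbol from a table of 20701 genes, and all 10 were found and passed the filter on low counts. The table holds polyadenylated RNA from the outflow tract together with the right ventricle (OFT/RV), dissected from single C57BL/6 mouse embryos at E10.5, with 4 control embryos labelled wild type (CTRL) and 4 Isl1 hypomorphs (Isl1_hypo). According to the study the hypomorphs carry the Isl1-f;neo/f;neo genotype, which lowers Isl1 but does not remove it, and the region derives from Isl1-expressing progenitors of the second heart field. The comparison asked whether regulators of cardiac splicing, or the transcripts they act on, differed when the LIM-homeodomain transcription factor Isl1 was reduced.

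Many heart genes give rise to more than one mRNA because exons are included or skipped as the muscle matures. Rbm20 represses exons of the giant sarcomere gene Ttn and of calcium handling genes, and Rbm24 promotes inclusion of muscle exons in the early heart. Rbfox proteins enhance or repress exons according to where they bind, and Mbnl and Celf proteins act on many of the same exons in opposite directions during the change from fetal to adult splicing. Esrp2 promotes epithelial splice forms. These statements are background and not results of the present data.

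Isl1 itself was lower in every library labelled Isl1_hypo, at a fitted ratio of 0.204 to CTRL. Isl1 (chromosome 13, 117088478 to 117099896, mm9) stood at 29.6, 61.5, 46.2 and 51.3 CPM (counts scaled to the depth of each library) in CTRL replicates 1 to 4. The Isl1_hypo embryos had 12.7, 6.86, 7.71 and 11.4 CPM, all under the lowest CTRL embryo. On the log2 scale it differed by −2.29 (SE 0.256, 95% interval −2.85 to −1.73, adjusted p 0.0077, edgeR quasi-likelihood test with Benjamini-Hochberg adjustment over 13769 genes). With 1 transcript kept per gene the libraries held 18422245 to 46678973 counts, and the 10 splicing regulators took 0.106% to 0.125% of them. Isl1_hypo replicate 3 stood apart, with 14305 genes detected against 14935 to 15396 elsewhere and a median rank correlation of 0.97 with its own group against 0.983 to 0.989, so values without it follow. Without it the log2 difference of Isl1 was −2.20. Cardiomyocyte markers were abundant in every embryo, with a summed level of 52200 to 64100 CPM in CTRL and 56100 to 67500 CPM in Isl1_hypo for the 16 genes listed. The 7 genes of skeletal muscle precursors listed summed to 70.4 to 95.3 CPM in CTRL and to 114 to 130 CPM in Isl1_hypo, higher in every hypomorph. Of these genes the defining regulators Myod1, Myf5 and Myog had at most 13 counts in any library. The part of these cells in the results was not tested.

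None of the splicing regulators passed the test that Isl1 passed. Of the 10 genes, 0 had an adjusted p under 0.05 in edgeR, where 0.269% of all genes tested did, and DESeq2 and limma-voom with sample weights also called 0. At an unadjusted p under 0.05 the count was again 0 in edgeR, against 11.9% of all genes. Under the criterion used in the study, a log2 difference beyond 0.58 up or down plus an unadjusted p under 0.05, 5.16% of all genes passed and none of these 10. No regulator had groups without overlap in CPM, which 8.5% of all genes had. Of the 10, 7 had a higher and 3 a lower estimate in Isl1_hypo, with a median log2 fold change of 0.10 against 0.01 over all genes tested. Because the OFT/RV was measured in bulk, fewer cells of a type and less RNA per cell cannot be told apart.

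**Figure D1:**
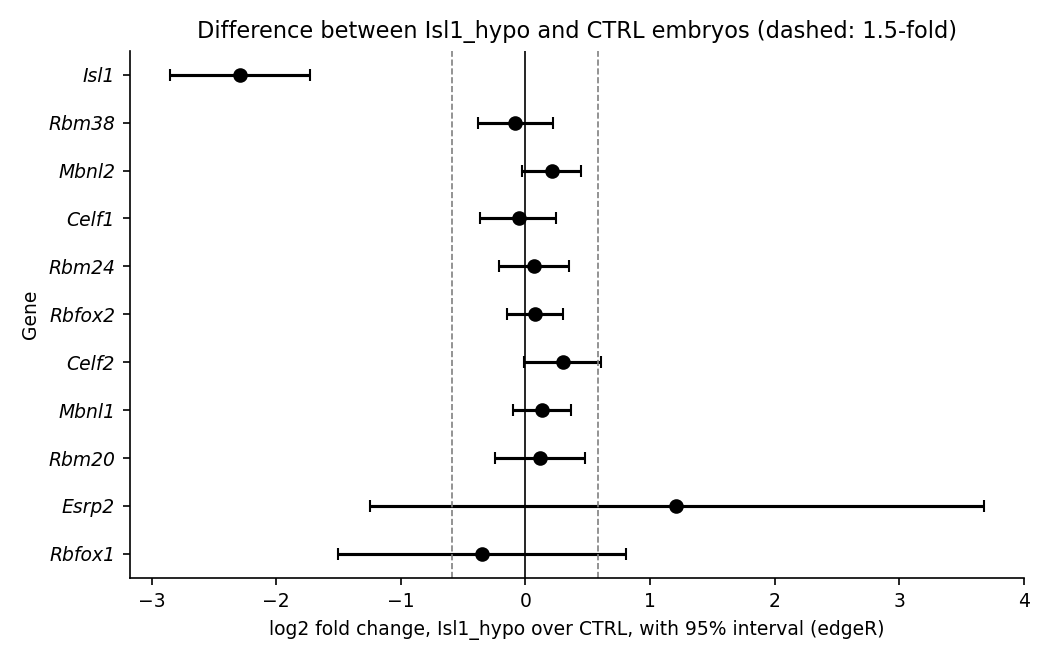
Log2 fold change of Isl1 and of the 10 splicing regulators, Isl1_hypo over CTRL, with 95% intervals from edgeR (n = 4 embryos per group). The dashed lines mark a 1.5-fold difference. The interval of Isl1 runs from −2.85 to −1.73, while every splicing regulator has an interval that includes 0 and 7 of the 10 intervals lie within the dashed lines.

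The size of change that the data allowed was under 1.5-fold for most of these genes. The 95% interval lay within a 1.5-fold difference in both directions for 7 of the 10, against 47.5% of all genes tested. These 7 were Rbm20, Rbm24, Rbm38, Rbfox2, Mbnl1, Mbnl2 and Celf1. The share over all genes includes genes with few counts. The median SE on the log2 scale was 0.181 over all genes and 0.139 over the 7711 genes above 20 CPM. A share for genes of like level was not computed. The interval of Celf2 reached a ratio of 1.53. The intervals of Rbfox1 and Esrp2 were wide. Both genes had few counts, at most 118 and 67 in any library, and both varied between embryos, with coefficients of variation of 45.9% and 51.1% for Rbfox1 and of 76% and 138% for Esrp2 in CTRL and Isl1_hypo.

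To compare the abundance of the regulators with each other, levels were expressed as CPM per kilobase of transcript. Rbm38 was the most abundant of the 10 at a mean of 110 CPM per kilobase over the 8 embryos, followed by Mbnl2 at 44.8, Celf1 at 35.1, Rbm24 at 31.6 and Rbfox2 at 23.5. Celf2 at 14.5, Mbnl1 at 11.2 and Rbm20 at 7.43 formed the lower part of the well expressed genes. Esrp2 at 0.32 and Rbfox1 at 0.269 lay far below. The mean of Esrp2 rested on Isl1_hypo replicate 1, and without that embryo it was 0.17 against 0.251 for Rbfox1, so their order turned, while the ratio of Rbm20 to Esrp2 went from 23.2 to 44.3. The ranges of neighbouring genes over the 8 embryos did not overlap between Rbm38 and Mbnl2, Rbfox2 and Celf2, Mbnl1 and Rbm20, or Rbm20 and Esrp2. Mbnl2 and Celf1, Celf1 and Rbm24, Rbm24 and Rbfox2, Celf2 and Mbnl1, and Esrp2 and Rbfox1 had overlapping ranges. Celf1 exceeded Rbm24 in 5 of 8 embryos and Esrp2 exceeded Rbfox1 in 5 of 8, so neither order was settled, whereas Rbm24 exceeded Rbfox2 and Celf2 exceeded Mbnl1 within each of the 8.

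**Figure D2:**
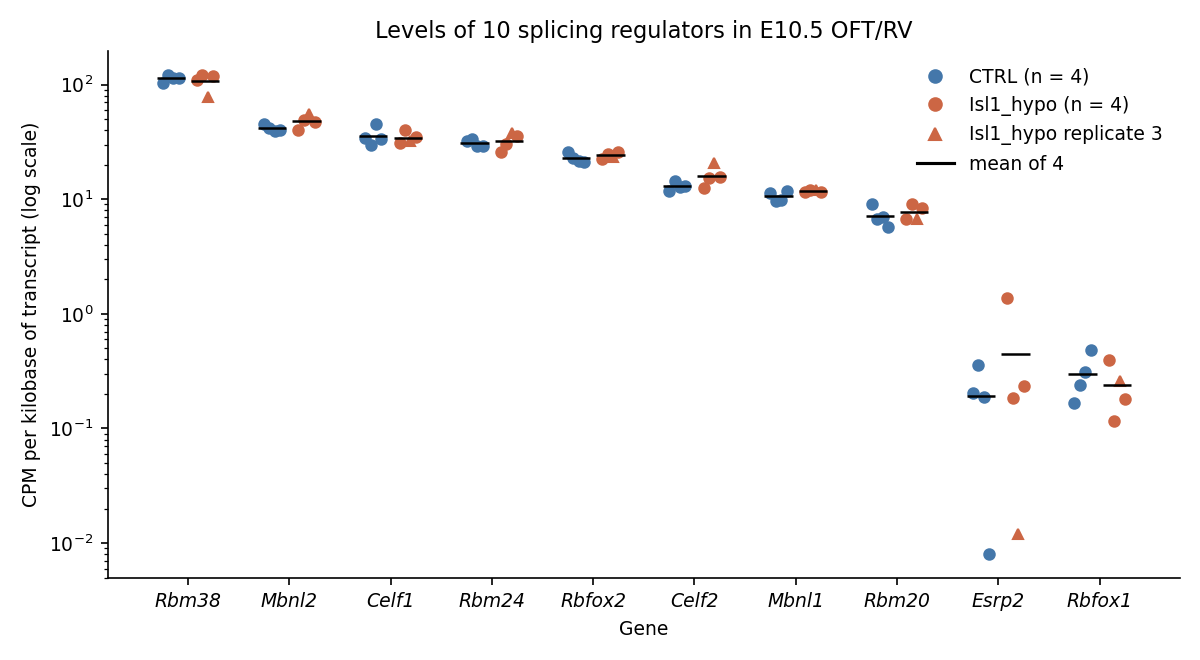
Level of each splicing regulator in CPM per kilobase of transcript (log scale) in 4 CTRL and 4 Isl1_hypo embryos, with the group mean as a black line and Isl1_hypo replicate 3 as a triangle. The order runs from Rbm38, at 78.3 to 122, down to Rbfox1, at 0.116 to 0.488, and the groups overlap for every gene.

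The RNA-binding motif proteins were examined first. Rbm20 (chromosome 19, 53751796 to 53941570), whose human counterpart is a dilated cardiomyopathy gene, had levels of 59.5, 44.4, 45.9 and 37.6 CPM in the CTRL embryos, and of 43.8, 60.1, 44.3 and 55.1 CPM in Isl1_hypo. Both groups spanned nearly the same range. The mean was 46.8 ± 9.18 CPM in CTRL and 50.8 ± 8.12 CPM in Isl1_hypo (SD, n = 4). The fitted difference was 0.12 on the log2 scale (95% interval −0.24 to 0.48, adjusted p 0.805, edgeR), and 0.18 without Isl1_hypo replicate 3. It ran from 0.02 without Isl1_hypo replicate 2 to 0.25 without CTRL replicate 1.

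Rbm24 (chromosome 13, 46513669 to 46526459), required for sarcomere assembly in the embryonic heart, stood at 103, 107, 93.5 and 93.1 CPM in CTRL and at 82.8, 97, 121 and 116 CPM in Isl1_hypo. The lowest and the highest embryo were both hypomorphs, and the spread of Isl1_hypo (SD 17.5 CPM) exceeded that of CTRL (6.82 CPM). For Rbm24 the log2 fold change was 0.07 (95% interval −0.21 to 0.35, adjusted p 0.855, edgeR), and −0.01 without Isl1_hypo replicate 3.

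Rbm38 (chromosome 2, 172845999 to 172860235), a close relative of Rbm24 that also acts in red cell precursors, stood at 181, 216, 203 and 201 CPM in CTRL and at 194, 216, 138 and 211 CPM in Isl1_hypo. All but 1 of the 8 embryos lay between 181 and 216 CPM, and the low value belonged to Isl1_hypo replicate 3. For Rbm38 it was −0.08 (95% interval −0.38 to 0.22, adjusted p 0.858, edgeR), and 0.05 (SE 0.0884) without that library. The summed level of the 13 erythroid genes listed, of which 12 were higher at an unadjusted p under 0.05 and 1 at an adjusted p under 0.05, was 2050 to 12000 CPM in CTRL and 12000 to 25800 CPM in Isl1_hypo. It was highest in Isl1_hypo replicate 3, the library with the lowest Rbm38, and its part in the Rbm38 level was not tested.

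The Rbfox proteins bind GCATG elements beside exons. Rbfox2 (chromosome 15, 76909420 to 77137483) stood at 170, 149, 142 and 139 CPM in CTRL and at 147, 163, 153 and 170 CPM in Isl1_hypo, with a log2 fold change of 0.08 (95% interval −0.15 to 0.30, adjusted p 0.798, edgeR), or 0.09 without Isl1_hypo replicate 3. The estimate ran from 0.04 without CTRL replicate 4 to 0.14 without CTRL replicate 1. Rbfox2 levels varied little, with a coefficient of variation of 9.44% in CTRL and 6.54% in Isl1_hypo. Rbfox1 (chromosome 16, 6809315 to 7412572), the form prominent in adult heart and neurons, had only 27, 50, 64 and 118 counts in CTRL and 38, 16, 42 and 27 in Isl1_hypo. Its log2 fold change of −0.35 (adjusted p 0.831, edgeR) had an interval from −1.50 to 0.81, that is from a ratio of 0.353 to 1.76. It was −0.39 without Isl1_hypo replicate 3, −0.01 without CTRL replicate 4 and −0.70 without Isl1_hypo replicate 1. Rbfox3, a neuronal relative, had at most 10 counts in any library and was removed by the filter.

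The Mbnl proteins are the factors sequestered by repeat RNA in myotonic dystrophy. Mbnl1 (chromosome 3, 60277032 to 60433670) stood at 64.1, 54.8, 55.8 and 67 CPM in CTRL and at 65, 68.1, 67.5 and 64.8 CPM in Isl1_hypo. The hypomorphs lay among or above the higher CTRL embryos, and their coefficient of variation was 2.56% against 10% in CTRL. Mbnl1 thus differed by 0.13 on the log2 scale (95% interval −0.10 to 0.37, adjusted p 0.644, edgeR), and by 0.13 also without Isl1_hypo replicate 3. Mbnl2 (chromosome 14, 120674891 to 120830919) stood at 204, 191, 178 and 183 CPM in CTRL and at 183, 222, 250 and 216 CPM in Isl1_hypo. Of the hypomorphs 3 exceeded every CTRL embryo and replicate 1 did not. The mean was 189 ± 11.3 and 218 ± 27.1 CPM (SD, n = 4), which the fit put at 0.21 on the log2 scale (95% interval −0.03 to 0.45, adjusted p 0.491). Without Isl1_hypo replicate 3 the estimate was 0.13, and without Isl1_hypo replicate 1 it was 0.28 with an unadjusted p of 0.0249 (adjusted p 0.305), in a fit where 13.8% of all genes had an unadjusted p under 0.05. Mbnl3 (chromosome X), which is not among the 10, stood at 65.9 to 72.3 CPM in CTRL and at 68.8 to 138 CPM in Isl1_hypo, highest in replicate 3, and differed by 0.46 on the log2 scale (unadjusted p 0.0296, adjusted p 0.351, edgeR), or by 0.22 without that library (unadjusted p 0.0764, adjusted p 0.527).

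The Celf proteins oppose Mbnl proteins at many exons. Celf1 (chromosome 2, 90780539 to 90859654) stood at 264, 231, 355 and 263 CPM in CTRL and at 242, 311, 250 and 270 CPM in Isl1_hypo. CTRL replicate 3 was the highest of the 8 embryos. Its log2 fold change was −0.05 (95% interval −0.36 to 0.25, adjusted p 0.908, edgeR), −0.02 without Isl1_hypo replicate 3 and 0.08 without CTRL replicate 3. Celf2 (chromosome 2, 6460751 to 7002348) stood at 91.4, 111, 98.7 and 101 CPM in CTRL and at 97.4, 119, 159 and 120 CPM in Isl1_hypo. Again 3 of the 4 hypomorphs exceeded every CTRL embryo, and replicate 3 was the highest. The mean was 100 ± 8.14 and 124 ± 25.6 CPM (SD, n = 4), which the fit put at 0.30 on the log2 scale (95% interval −0.01 to 0.61, unadjusted p 0.0541, adjusted p 0.431). Without Isl1_hypo replicate 3 it was 0.16 (adjusted p 0.645), and without Isl1_hypo replicate 1 it was 0.40 (unadjusted p 0.0118, adjusted p 0.249). Among their relatives, Celf4 differed by −0.46 on the log2 scale (adjusted p 0.565, edgeR), and Celf3, Celf5 and Celf6 had at most 16 counts in any library and were removed by the filter.

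The level of Esrp2 was highest in 1 embryo. Esrp2 (chromosome 8, 108654219 to 108660874), an epithelial splicing regulator, had 17, 39, 20 and 1 counts in CTRL and 67, 13, 1 and 18 in Isl1_hypo, where replicate 1 was also the shallowest library. Its level in that embryo was 3.64 CPM, and at most 0.959 CPM in any other. The log2 fold change of 1.21 (95% interval −1.25 to 3.68, adjusted p 0.696, edgeR) became −0.41 without Isl1_hypo replicate 1, and 1.63 without Isl1_hypo replicate 3. Of the 10 epithelial genes listed, 9 had their highest CPM in the same embryo and 1, Krt19, in Isl1_hypo replicate 3. Its relative Esrp1 had 111 counts there and at most 8 elsewhere, the adherens junction gene Cdh1 had 282 and at most 9, the claudin gene Cldn6 had 708 and at most 8, and Epcam had 181 and at most 54. The summed level of the 10 epithelial genes listed was 394 CPM in that embryo, 180 to 325 CPM in the other hypomorphs and 96 to 174 CPM in CTRL. Krt8, Krt18 and Krt19 gave most of that sum. Krt19 stood at 79.2 CPM in Isl1_hypo replicate 1 and at 132 CPM in replicate 3, while Krt8 stood at 92.7 and 69.7 CPM and Krt18 at 140 and 122 CPM. Foxa2 had at most 5 counts in any library. All 6 tested epithelial genes had a higher estimate in Isl1_hypo, 4 of them at an unadjusted p under 0.05 and 0 at an adjusted p under 0.05. The part of epithelial tissue in the Esrp2 level was not tested.

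**Figure D3:**
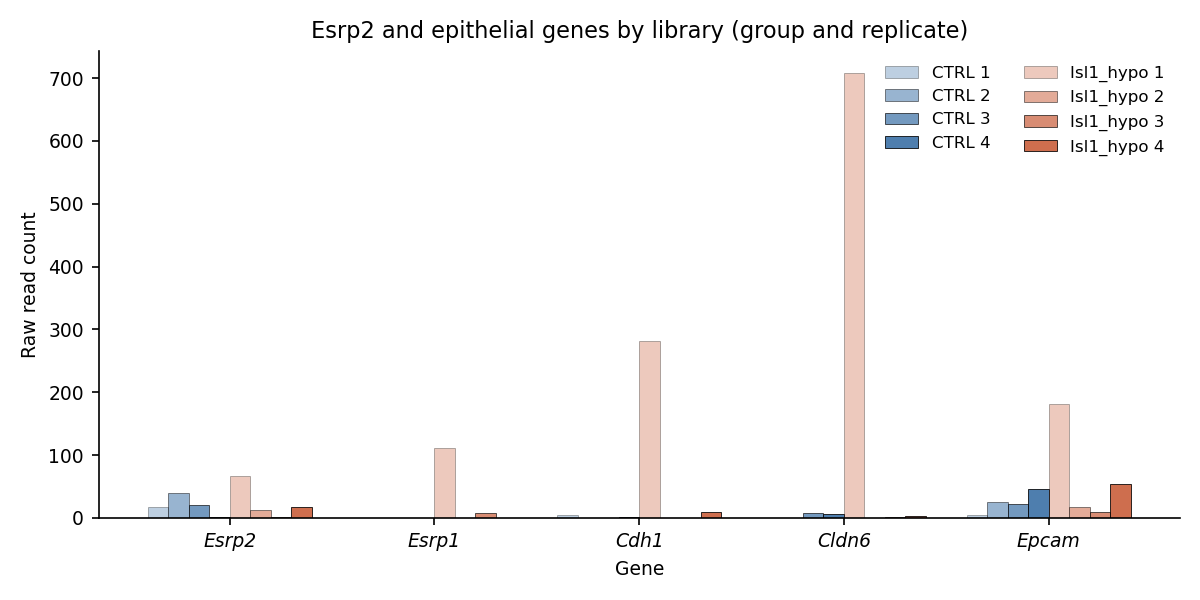
Raw read counts of Esrp2, Esrp1, Cdh1, Cldn6 and Epcam in each of the 4 CTRL and 4 Isl1_hypo libraries (bars from left to right in the order of the key). Isl1_hypo replicate 1 has the highest count of each gene, from 67 for Esrp2 to 708 for Cldn6.

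The regulators were next set against the cardiomyocyte marker level of each sample, by subtracting the mean log2 CPM of the 16 cardiomyocyte markers. The study reports lower RNA of selected cardiomyocyte structural and contraction genes in hypomorphic OFT/RV at E10.5. The marker mean is therefore not a measure of muscle content independent of genotype. That mean was 10.60 ± 0.08 in CTRL and 10.59 ± 0.14 in Isl1_hypo (SD, n = 4), so the correction was small. Relative to it, Rbm20 lay at −5.07 ± 0.34 and −4.94 ± 0.14 on the log2 scale, Rbm24 at −3.97 ± 0.16 and −3.91 ± 0.33, and Celf2 at −3.95 ± 0.11 and −3.66 ± 0.39. No regulator had groups without overlap on this scale, against 6.76% of all genes tested. Without Isl1_hypo replicate 3 none did either, against 9.95% of all genes.

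Genes whose log2 CPM ran most like that of Rbm20, Rbm24 and Rbm38 were listed by Pearson correlation. All genes of a library share its depth and composition, and these are the highest values among all genes compared, so they are descriptions only. Among genes with at least 5 CPM, those most like Rbm20 over the 8 libraries were Zfp940, Rubcn, Arhgap11a, Ttc37 and Rbfox2 (Pearson r of 0.912 to 0.975). Zbtb10, Rps6kb1, Mcl1, Jmy and Kdm1b were most like Rbm24 (0.958 to 0.972), and Rbm14, Scap, Exoc3l, Urb1 and Gpn2 most like Rbm38 (0.966 to 0.971).

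Transcript choice of the regulators themselves was then examined. Splicing regulators often control their own exons. The table counts reads over the exons of each RefSeq transcript, so transcripts of 1 gene share most reads and their ratio moves only with reads in exons they do not share. For Mbnl2 the shorter transcript was listed as 53 bases shorter than the longer one, and the GENCODE annotation of mm9 holds 1 coding exon of Mbnl2 within 1 base of that length. For Mbnl1 a transcript was listed as 94 bases shorter, with 1 such exon in the annotation. Both exons are shown because these length differences each point to 1 coding exon of a regulator, with the exon in capitals and 20 intron bases on each side in lower case, on the plus strand. The Mbnl2 exon of 54 bases lies at chr14:120794934-120794987 and the Mbnl1 exon of 95 bases at chr3:60426068-60426162, and both are bounded by AG and GT. The match between transcript and exon rests on length alone.
Mbnl2: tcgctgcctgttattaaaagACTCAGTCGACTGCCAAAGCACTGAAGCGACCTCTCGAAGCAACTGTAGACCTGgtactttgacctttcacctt
Mbnl1: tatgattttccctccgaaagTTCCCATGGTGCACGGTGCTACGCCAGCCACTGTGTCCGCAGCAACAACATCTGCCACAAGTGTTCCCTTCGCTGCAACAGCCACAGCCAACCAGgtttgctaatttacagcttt

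The reads that the longer Mbnl2 transcript held beyond the shorter one numbered 60, 84, 85 and 111 in CTRL and 39, 56, 73 and 54 in Isl1_hypo. Per base, this was 0.948 ± 0.128 times the density of the whole transcript in CTRL and 0.818 ± 0.106 times in Isl1_hypo (SD, n = 4), with overlapping groups. For Mbnl1 the extra reads numbered 23, 11, 21 and 30 in CTRL and 8, 16, 20 and 17 in Isl1_hypo, a relative density of 0.525 ± 0.164 and 0.504 ± 0.0725. The Mbnl2 exon was thus read at close to the density of its transcript in both genotypes and the Mbnl1 exon at a lower one. How reads across junctions were assigned at so short an exon is not given in the sources used here, so these densities are not inclusion levels.

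All ratios between transcripts of 1 gene were tested in the same way, 7599 ratios of 4016 genes with at least 100 mean counts. Of the regulators, Celf1, Celf2, Mbnl1, Mbnl2 and Rbfox2 contributed 27 ratios. Of these, 0 had an unadjusted p under 0.05 (limma), where 6.03% of all ratios did, and 0 had groups without overlap, where 3.51% of all did. At an adjusted p under 0.05 limma called 0 ratios over the whole table (0%). The largest difference among the 27 was −0.0266 on the log2 scale, for an Rbfox2 transcript that held 74 ± 1.83% of the reads of the most counted Rbfox2 transcript in CTRL and 72.6 ± 1.9% in Isl1_hypo. For the Mbnl2 pair the difference was 0.00226 (95% interval −0.00116 to 0.00569). The shorter Mbnl2 transcript held 98.7 to 99.1% of the reads of the longer one, so even loss of the exon could move this ratio little. Where transcripts share nearly all reads, a small ratio difference and a narrow interval do not show that exon choice was unchanged.

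**Figure D4:**
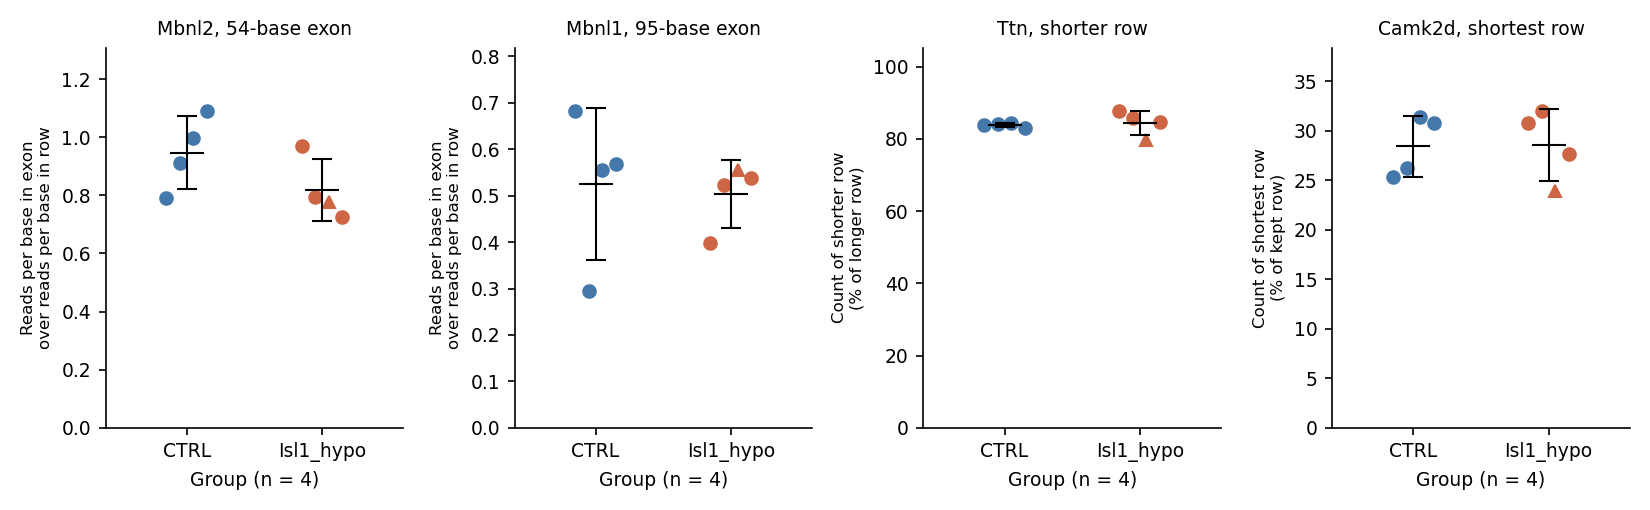
From left to right, read density in the 54-base Mbnl2 exon and the 95-base Mbnl1 exon relative to the whole transcript, the count of the shorter Ttn transcript as a percentage of the longer one, and that of the shortest Camk2d transcript as a percentage of the one kept. Points are embryos (triangle, Isl1_hypo replicate 3) and bars are mean ± SD of 4. The groups overlap in all 4 panels.

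The transcripts on which these proteins act were examined at the level of the gene and of the transcript ratio. Of 32 muscle transcripts known to be spliced by the regulators, 0 had an adjusted p under 0.05 in edgeR. At an unadjusted p under 0.05, 8 had lower and 2 higher levels in Isl1_hypo, and the median log2 fold change was −0.19 against 0.01 over all genes. Without Isl1_hypo replicate 3 these counts were 7 and 2, the median was −0.14, and 1 gene, which is not reported here, had an adjusted p under 0.05. In 7 of the 32 the groups did not overlap. Over all genes tested, 11.9% had an unadjusted p under 0.05 and 8.5% had groups without overlap. The list was drawn up with results of these embryos known, so its direction is not independent evidence.

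Ttn, the principal target of Rbm20, stood at 2650, 2340, 3290 and 4900 CPM in CTRL and at 1280, 2280, 1660 and 1860 CPM in Isl1_hypo, without overlap, and differed by −0.90 on the log2 scale (adjusted p 0.173, edgeR). Ablim1, an actin-binding protein gene, differed by 0.41 on the log2 scale (adjusted p 0.198), and Pdlim3, which encodes a Z-disc protein, by −0.44 (adjusted p 0.292). Camk2d, a kinase gene spliced by Rbm20, had 0.12 (95% interval −0.16 to 0.41), and Tnnt2, a troponin gene whose exon choice responds to Celf and Mbnl proteins, had −0.18 (−0.52 to 0.16).

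The ratios of their transcripts moved little. The shorter Ttn transcript held 83.8, 84.1, 84.4 and 83.1% of the reads of the longer one in CTRL and 87.7, 85.7, 79.8 and 84.7% in Isl1_hypo. The CTRL embryos lay close together, and the hypomorphs lay on both sides of them (limma, difference of 0.00981 on the log2 scale, 95% interval −0.0549 to 0.0746). The shortest Camk2d transcript held 28.4 ± 3.09% of the reads of the one kept in CTRL and 28.6 ± 3.62% in Isl1_hypo. Of 110 ratios from 27 of the muscle genes, 10 had an unadjusted p under 0.05, among them ratios of Pdlim5, Tpm1 and Tnnt2, and 0 an adjusted one (limma). In 7 of the 110 the groups did not overlap. As a share of the 110 both counts exceeded those over all ratios, 6.03% and 3.51%, and ratios of 1 gene share reads. The 4 ratios of Pdlim5, which share most of their reads, had the lowest p. A short transcript of this Z-disc protein gene held 82.6, 79.7, 77.9 and 83.8% of the reads of the long one in CTRL and 89.1, 88.3, 103 and 97.7% in Isl1_hypo, without overlap (log2 difference 0.22, 95% interval 0.0908 to 0.35, unadjusted p 0.00511, adjusted p 0.688, limma). Isl1_hypo replicate 3 was again the highest, and without it the log2 difference was 0.178 (95% interval 0.0697 to 0.287, adjusted p 0.702).

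Splicing regulators outside the 10 were compared as families. Of 13 SR proteins, which bind exons and promote their inclusion, 0 had an adjusted p under 0.05 (edgeR), while 4 higher and 1 lower had an unadjusted p under 0.05 (3 and 1 without Isl1_hypo replicate 3). Over all genes 11.9% had such a p and 0.269% an adjusted one. Srsf5 stood at 52 to 68.2 CPM in CTRL and at 30.3 to 43.9 CPM in Isl1_hypo, a log2 fold change of −0.72 (SE 0.15, unadjusted p 0.000489, adjusted p 0.0822). Srsf10 stood at 43.4 to 62.3 CPM and 65.1 to 104 CPM, a log2 fold change of 0.62 (adjusted p 0.195), highest in Isl1_hypo replicate 3 and 0.45 without it (adjusted p 0.219). Tra2b had 0.30 (adjusted p 0.287) and Tra2a 0.35 (adjusted p 0.314). SR protein genes also make unproductive transcripts, which counts per gene do not separate.

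Of 24 hnRNP and PTB proteins, mostly silencers of exons, 0 passed an adjusted p of 0.05 and 1 in each direction had an unadjusted p under 0.05 (0 higher and 1 lower without Isl1_hypo replicate 3), a smaller share than the 11.9% of all genes. Hnrnpdl differed by −0.46 on the log2 scale (adjusted p 0.164, edgeR) and Hnrnpa1 by 0.26 (adjusted p 0.415). Of 33 other tissue regulators and SR protein kinases, 0 passed and 2 were lower at an unadjusted p under 0.05, again a smaller share than over all genes. These were the splicing factor gene Rbm25, which differed by −0.35 on the log2 scale (adjusted p 0.173), and the kinase gene Clk4, which differed by −0.36 (adjusted p 0.348). The median log2 fold change was 0.02 for the SR proteins, −0.02 for the hnRNP list and 0.02 for the last list, near the 0.01 of all genes.

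**Figure D5:**
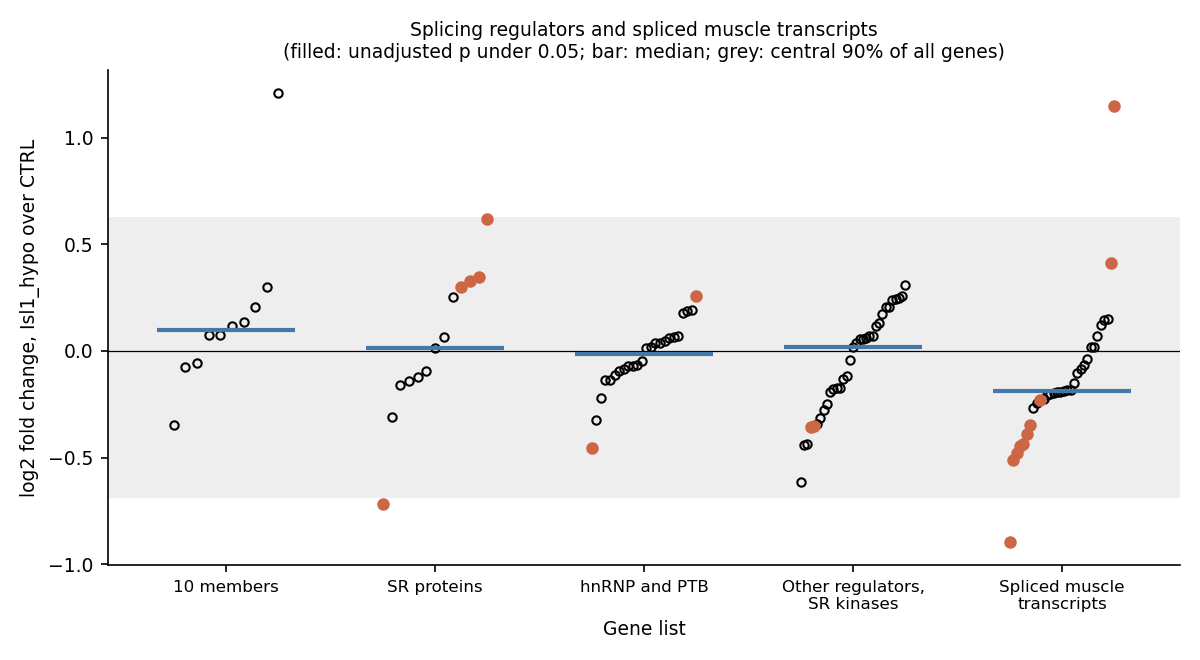
Log2 fold change (Isl1_hypo over CTRL, edgeR) of each tested gene in the set of 10 regulators and in 4 lists of other splicing regulators and spliced muscle transcripts. Filled points have an unadjusted p under 0.05, blue bars are medians and the grey band holds the central 90% of all genes. None of the 10 regulators is filled, and the muscle transcripts have the lowest median, −0.19.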

How the data were processed

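Per the labels and the study's methods, RNA of single embryos was sequenced on BGISEQ-500, and the authors aligned reads to mm9 with STAR and counted exon reads per RefSeq transcript with HOMER, ignoring strand. The deposited counts are raw whole numbers per transcript, so overlapping and antisense genes cannot be told apart. Authors' RPKM values (8 columns, 1 per library) and the columns of their own DESeq2 comparison (fold changes, p-values) were not used.

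Of several transcripts with 1 symbol, that with the most reads on average was kept, and levels per kilobase used its deposited length. Genes passing filterByExpr (13769) were scaled by TMM and tested across all genes with edgeR 4.0.16 (quasi-likelihood, no covariate, Benjamini-Hochberg). CPM used TMM-scaled library sizes, and log2 CPM a prior count of 2. Standard errors are the log2 fold change divided by the root of F. Transcript ratios, with an offset of 0.5 counts, were tested with limma 3.58.1. DESeq2 1.42.0 was an alternative. Both tests were tried on simulated data. For the ratios these were independent values, whereas ratios of 1 gene share reads. The trend of variance with mean count that the ratio test used was also left out there. That trial therefore does not cover the ratio test as run. P-values measure the spread between single embryos.

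Named were all 10 regulators, Isl1, list genes with an adjusted p under 0.05 or otherwise up to 4 with the lowest unadjusted p, relatives of the regulators, and Ttn, Tnnt2 and Camk2d. Some genes that this rule names are not reported here. The regulators and lists were chosen with earlier results of these data known. Cell type lists not given above were endothelial (2 of 8 lower at an unadjusted p under 0.05), neural (1 of 5 lower), mesenchyme and smooth muscle (3 of 10 lower), and skeletal muscle precursor (1 of 2 higher), and of the 16 cardiomyocyte genes 2 were higher and 2 lower. None of these lists had an adjusted p under 0.05.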

Additional observations from a re-analysis of the deposited data

Results flagged for a closer look

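The summed level of the 10 epithelial genes was 96 CPM in CTRL replicate 1, against 167 to 174 CPM in the other CTRL embryos, a gap larger than expected within a group of 4. Esrp2, at 0.544 CPM in that embryo, lay among the other CTRL embryos. Of 38 groups of 4 values examined, this was the only 1, where chance gives about 1 in 20.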

How the results depend on the processing

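No regulator passed an adjusted p of 0.05 under any alternative, and the lowest adjusted p was 0.249 (Celf2). Estimates changed sign for Rbm24 with limma-voom (−0.01) and without Isl1_hypo replicate 3 (−0.01), for Rbm38 without Isl1_hypo replicate 3 (0.05), for Celf1 without CTRL replicate 3 (0.08) and for Esrp2 without Isl1_hypo replicate 1 (−0.41). Esrp2 was removed by a minimum of 10 counts in every library. With 1 library left out the estimates ran from −0.01 to 0.17 for Rbm24, −0.15 to 0.05 for Rbm38, −0.14 to 0.08 for Celf1, −0.41 to 1.74 for Esrp2, −0.70 to −0.01 for Rbfox1 and 0.02 to 0.25 for Rbm20, and 0 to 2 regulators had an unadjusted p under 0.05 (Celf2 without CTRL replicate 2, where 9.26% of all genes did, and Celf2 and Mbnl2 without Isl1_hypo replicate 1, where 13.8% did). Over all genes, 37 had an adjusted p under 0.05 in edgeR, 319 in DESeq2, 130 in limma-voom and 4 to 48 with 1 library left out (4 without CTRL replicate 3, 5 without CTRL replicate 2, 8 without CTRL replicate 1, 11 and 12 without Isl1_hypo replicates 4 and 2). With the replicate block the count was 0 and Isl1 had a log2 fold change of −2.29 at an adjusted p of 0.0722. Deviations of same-numbered libraries had correlations of −0.021 to 0.022, and those of other pairs −0.064 to 0.058. No pairing of embryos by number was seen, but with 4 embryos per group these values cannot exclude it. Without Isl1_hypo replicate 3, the counts at an unadjusted p under 0.05 became 1 for lower cardiomyocyte genes, 1 for higher endothelial genes, 0 for higher hnRNP genes, 0 for higher relatives of the regulators and 2 for higher skeletal muscle precursor genes. That alternative for the lists was chosen after seeing the data. Transcript ratios past the threshold stayed at 0 under every alternative. Causes were not tested. Transcript ratios see only unshared exons. The order of levels without Isl1_hypo replicate 1, and the list genes and Pdlim5 ratios without Isl1_hypo replicate 3, were also computed after seeing the data.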
